A study of Mus musculus with 6 samples.

Results

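The 8 genes described here encode inhibitors of cyclin-dependent kinases (CDKs) and proteins of the retinoblastoma family. They are Cdkn1a, Cdkn1b, Cdkn2a, Cdkn2c, Cdkn2d, Rb1, Rbl1 and Rbl2. They were taken by gene family from the 27179 genes of the count table. All 8 passed the filter on low counts that left 14199 genes for testing. The rule itself uses no measured value, but the 8 genes were chosen with earlier results of these data known. The counts come from poly(A)-selected RNA of mouse embryonic stem cells of the ES-E14TG2a background, grown on gelatin in 2i + Lif medium, which contains the inhibitors CHIR99021 and PD0325901. One group carried FLAG-Trim71 and is called WT, and the other carried FLAG-Trim71 (R783H), so both groups share the FLAG tag and differ in 1 labelled residue of Trim71. Each group had 3 libraries, lettered A, B and C. The labels do not say whether a letter stands for a clone, a culture or a preparation, so the p-values measure the spread between these libraries, which may be technical. The comparison asks which of these mRNAs differ in cells in which Trim71, a TRIM-NHL protein that binds mRNA, carries a change whose human counterpart is linked to congenital hydrocephalus.

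Progression from G1 into S phase depends on CDKs bound to cyclins D and E. The CIP/KIP inhibitors bind cyclin-CDK complexes, whereas the INK4 inhibitors bind CDK4 and CDK6 and keep cyclin D away from them. Pocket proteins bind E2F transcription factors and hold down genes of the cell cycle until CDKs phosphorylate them. Mouse embryonic stem cells are known for a short G1 phase and for weak use of this brake, and Trim71 is known to bind the 3' untranslated region of Cdkn1a mRNA and to lower its output.

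Total counts ran from 20894277 to 29079670 per library, and each R783H library was deeper than each WT library. Log2 CPM values (CPM, read counts scaled to a common library size) correlated across genes at 0.995 to 0.996 within groups and at 0.972 to 0.977 between them, and genes are not independent replicates. R783H B stood furthest from its group: a chi-square statistic of its counts per degree of freedom was 10.6 against R783H A and 11.6 against R783H C, where A and C gave 2.12. Trim71 itself was read at 151.7, 129.0 and 150.5 CPM in R783H A, B and C and at 130.8, 131.2 and 159.4 CPM in WT, with overlapping groups. All 8 markers of embryonic stem cells were detected, with a summed level of 6790 to 6924 CPM in R783H and 6957 to 7041 CPM in WT. Within that sum Pou5f1, Nanog and Zfp42 were called lower in R783H, Tfcp2l1 and Dppa5a higher, and 3 were not called. The 8 fibroblast markers summed to 3.21 to 4.26 CPM in R783H and 4.03 to 4.802 CPM in WT, and 4 of them (Col3a1, Dcn, Lum and Postn) were too low to be tested. Of the 4 tested, Thy1 was called lower, with WT at 1.31 CPM and R783H at 0.19 CPM, and 3 were not called. The 6 primitive endoderm markers, of which Pdgfra is on the fibroblast list too, summed to 8.81 to 9.72 CPM in R783H and 4.36 to 6.63 CPM in WT. Foxa2 and Sox7 were too low to be tested, Gata4 and Sox17 were called higher and 2 were not called. The part of the 3 marker lists in the results below was not tested.

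Of the 8 genes, 5 rose in R783H (Cdkn1a, Cdkn1b, Cdkn2a, Rbl1 and Rbl2), Cdkn2d fell, and Rb1 and Cdkn2c did not pass the test. The called increases were 1.42-fold to 1.70-fold, and the decrease of Cdkn2d was 1.47-fold. A gene was called where the p-value of edgeR's quasi-likelihood test, adjusted over all 14199 genes, was under 0.05. That rule called 64.5% of all tested genes, 33.5% as higher and 30.9% as lower, so a call by itself is common in this table. For 6 of the 8 genes the CPM ranges of R783H and WT were apart, as they were for 68.1% of all tested genes. The median log2 fold change of the 8 genes was 0.54, beside 0.03 for all tested genes. The counts of 5 higher and 1 lower stood under all 17 alternative settings, among them counts thinned to equal depth and each fit that left out a library. In bulk RNA, fewer cells expressing a gene and less RNA per cell cannot be told apart.

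**Figure D1:**
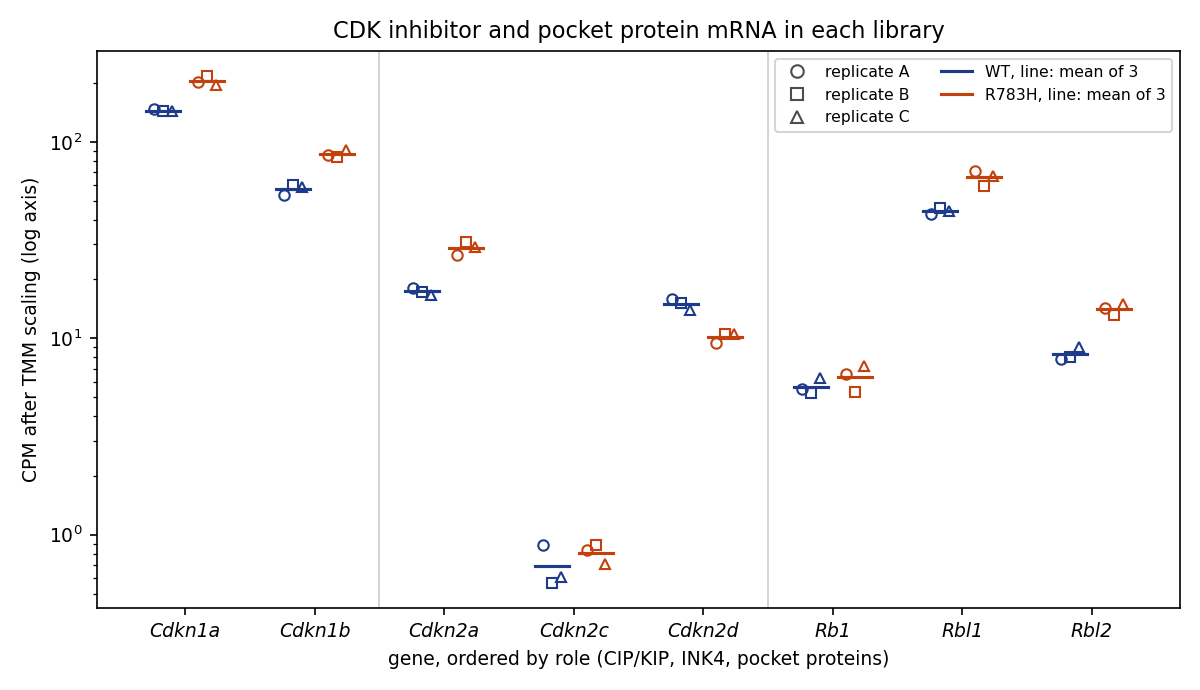
Level of each of the 8 mRNAs in each library, as CPM after TMM scaling on a log axis, with symbols for the replicate letter, colors for the group and a line at the mean of 3 libraries. The groups are apart for Cdkn1a, Cdkn1b, Cdkn2a, Cdkn2d, Rbl1 and Rbl2, with Cdkn2d lower in R783H, and overlap for Cdkn2c and Rb1.

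Cdkn1a (Entrez 12575, chromosome 17, 29090976 to 29100727, plus strand, GRCm38) encodes p21, the CIP/KIP inhibitor best known as a target of p53. It was the most abundant of the 8 genes, at 202.4, 216.0 and 194.7 CPM in R783H A, B and C and at 146.9, 142.7 and 142.9 CPM in WT A, B and C. The lowest R783H library thus lay above the highest WT library, and the WT libraries were closer together than the R783H libraries. The R783H mean was 204.4 ± 10.8 CPM and the WT mean 144.2 ± 2.36 CPM (SD, n = 3 each). This amounts to a log2 fold change of 0.50 (SE 0.05; adjusted p 4.45e-06, edgeR's quasi-likelihood test). Its exons share sequence with AC167363.2 on the opposite strand, and the use of strand in counting is not given in the sources used here.

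Cdkn1b (Entrez 12576, chromosome 6, 134920401 to 134925513, plus strand) encodes p27, the CIP/KIP inhibitor that holds cells in quiescence and is degraded through the ubiquitin ligase SCF with Skp2 and Cks1b. R783H A, B and C stood at 85.6, 83.4 and 90.3 CPM, and WT A, B and C at 53.6, 60.3 and 58.5 CPM. All R783H libraries were higher than all WT libraries, and the spread within the groups was alike, with means of 86.5 ± 3.49 and 57.5 ± 3.48 CPM (SD, n = 3 each). Cdkn1b changed on the log2 scale by 0.59 (SE 0.06; edgeR's quasi-likelihood adjusted p 4.96e-06).

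Embryonic stem cells express microRNAs of the miR-290 and miR-302 clusters, which are known to act on Cdkn1a and Rbl2 mRNA, and miR-221 and miR-222 are known to act on Cdkn1b. The sequences of 1 member of each group of microRNAs and the matching stretches in the annotated 3' untranslated regions are shown because Cdkn1a, Cdkn1b, Rbl1 and Rbl2 are 4 of the 5 genes that rose. This choice was made from the fold changes, so a match in a gene that rose is no support for a link. Cdkn2a, which rose too, held no match of the microRNA seeds searched. In the microRNAs (RefSeq, GRCm38.p6) capitals mark the seed, bases 2 to 8 from the 5' end. The same seed, AAGUGCU, is found in miR-291a-3p, miR-294-3p, miR-295-3p, miR-302b-3p and miR-302d-3p, and GCUACAU is the seed of miR-221-3p and miR-222-3p. In the mRNA stretches capitals mark the 7 bases that pair with the seed.
mmu-miR-294-3p: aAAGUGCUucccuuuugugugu
mmu-miR-302b-3p: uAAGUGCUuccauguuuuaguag
Cdkn1a, bases 435 to 441 of the 3' untranslated region: tcctcagacctgaatAGCACTTtggaaaaa
Cdkn1a, bases 1107 to 1113: taccgtgggtgtcaaAGCACTTagtgggtc
Rbl1, bases 22 to 28: cctttgcctgatcaaAGCACTTttggattg
Rbl2, bases 1384 to 1390: tgtatttttcaataaAGCACTTataaatta
mmu-miR-221-3p: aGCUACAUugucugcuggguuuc
Cdkn1b, bases 2357 to 2363: ctctaaaagcattggATGTAGCattgcgca

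The motif AGCACTT, read on the mRNA strand of the longest coding transcript, was present in 3 of the 8 genes: 2 times in Cdkn1a and 1 time each in Rbl1 and Rbl2. Among 3' untranslated regions of similar length (0.8 to 1.25 times that of the gene) it was present in 15.5% for Cdkn1a, 18.8% for Rbl1 and 16.6% for Rbl2. ATGTAGC, present in Cdkn1b alone among the 8, was found in 23.2% of regions of similar length; that of Cdkn1b has 3439 bases. The overlapping motif GCACTTT, which pairs with the seed AAAGUGC of miR-17-5p, miR-20a-5p, miR-93-5p and miR-106b-5p, was present in Cdkn1a, Rb1, Rbl1 and Rbl2. In regions of similar length GCACTTT was present in 13.7% for Cdkn1a, 16.8% for Rb1, 15.7% for Rbl1 and 14.6% for Rbl2. In Cdkn1a and Rbl1 it shares 6 bases with an AGCACTT match. CTACCTC, the match of the let-7 seed GAGGUAG, was present in 0 of the 8. A match describes the letters of the annotated transcript, and no microRNA was measured here. Whether the matches bear on the fold changes was not tested.

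Cdkn2a (Entrez 12578, chromosome 4, 89274471 to 89294653, minus strand) encodes the INK4 inhibitor p16 and, from another first exon and another reading frame, p19Arf, which stabilizes p53 by binding Mdm2. Counts per gene do not separate the 2 products. The level was 26.6, 30.9 and 29.1 CPM in R783H A, B and C and 17.9, 17.3 and 16.7 CPM in WT A, B and C. No library of one group reached into the range of the other. With means of 28.9 ± 2.19 CPM for R783H and 17.3 ± 0.618 CPM for WT (SD, n = 3 each), Cdkn2a had a log2 fold change of 0.74 (SE 0.07) with an adjusted p of 5.70e-06 from edgeR's quasi-likelihood test. It was thus the only INK4 gene of the 3 that was called higher.

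Cdkn2d (Entrez 12581, chromosome 9, 21288410 to 21291407, minus strand) encodes the INK4 inhibitor p19Ink4d and was the only one of the 8 that fell. It was counted at 9.45, 10.5 and 10.5 CPM in R783H A, B and C and at 15.8, 15.1 and 13.97 CPM in WT A, B and C. The highest R783H library lay below the lowest WT library. Means were 10.2 ± 0.617 CPM for R783H and 14.98 ± 0.946 CPM for WT (SD, n = 3 each). Its log2 fold change was -0.56 (SE 0.08), and edgeR's quasi-likelihood adjusted p was 1.25e-04.

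Cdkn2c (Entrez 12580, chromosome 4, 109660876 to 109667189, minus strand) encodes the INK4 inhibitor p18. Only 25, 25 and 21 reads were counted in the R783H libraries and 18, 14 and 13 in the WT libraries (A, B and C in turn), or 0.81 ± 0.09 CPM and 0.69 ± 0.17 CPM (SD, n = 3 each). WT A, at 0.89 CPM, lay above all R783H libraries, and WT B and C lay below them. Its log2 fold change of 0.24 (SE 0.26) had an adjusted p of 0.449 in edgeR's quasi-likelihood test, so a difference was not detectable at this depth. Leaving out 1 library at a time moved the value between 0.11 and 0.45 without a call.

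Rbl1 (Entrez 19650, chromosome 2, 157145893 to 157204534, minus strand) encodes p107, a pocket protein that mostly binds E2F4 and E2F5 and whose gene is itself a known E2F target. It was at 71.3, 59.6 and 67.2 CPM in R783H A, B and C and at 43.1, 45.8 and 44.3 CPM in WT A, B and C. R783H B was the lowest of its group and still exceeded every WT library. The means were 66.0 ± 5.96 CPM and 44.4 ± 1.38 CPM (SD, n = 3 each), a log2 fold change of 0.57 (SE 0.07; adjusted p 2.25e-05, edgeR's quasi-likelihood test).

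Rbl2 (Entrez 19651, chromosome 8, 91070057 to 91123844, plus strand) encodes p130, the pocket protein that prevails in quiescent cells as part of the DREAM complex. R783H A, B and C had 14.2, 13.1 and 14.9 CPM, and WT A, B and C had 7.87, 8.03 and 8.999 CPM, or 14.1 ± 0.898 and 8.30 ± 0.610 CPM (SD, n = 3 each). The groups were apart, with a 1.70-fold higher level in R783H. On the log2 scale this was 0.76 (SE 0.09), with an adjusted p of 2.00e-05 from edgeR's quasi-likelihood test. Exons of Rbl2 share sequence with Aktip and Gm45464 on the opposite strand.

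Rb1 (Entrez 19645, chromosome 14, 73183673 to 73325822, minus strand) encodes the retinoblastoma protein, which binds mainly the activating E2Fs. It was at 6.59, 5.32 and 7.19 CPM in R783H A, B and C and at 5.50, 5.26 and 6.28 CPM in WT A, B and C. R783H B fell within the WT range, and the other R783H libraries lay above it, with means of 6.37 ± 0.954 and 5.68 ± 0.534 CPM (SD, n = 3 each). Rb1 had a log2 fold change of 0.17 (SE 0.13), which did not pass edgeR's quasi-likelihood test (adjusted p 0.277). Without R783H B it was 0.26, again with no call (adjusted p 0.0638 in edgeR's quasi-likelihood test). Parts of Rb1 exons overlap Lpar6 and Rcbtb2 on the opposite strand.

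**Figure D2:**
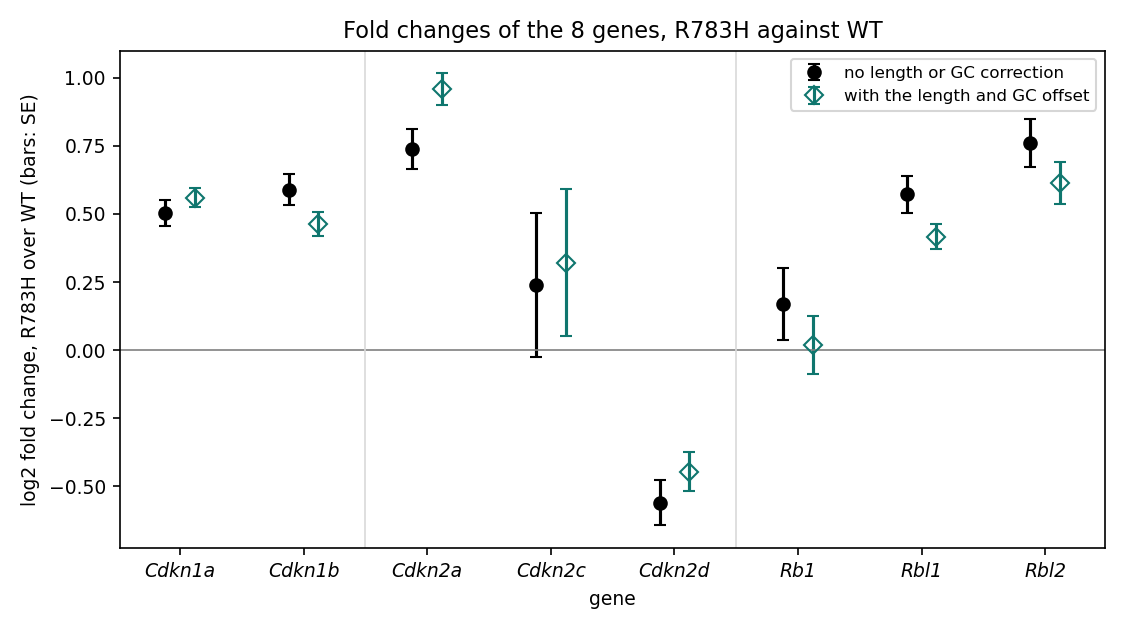
Log2 fold change of R783H over WT for each of the 8 genes, with bars of 1 standard error, without correction (filled circles) and with an offset for transcript length and GC content (open diamonds). Cdkn1a, Cdkn1b, Cdkn2a, Rbl1 and Rbl2 lie above 0 and Cdkn2d below 0 in both, while Rb1 moves from 0.17 to 0.02.

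Per kilobase of the longest annotated transcript, the order of the mean levels in R783H was Cdkn1a (98.3 ± 5.17 CPM per kb), Cdkn2a (32.2 ± 2.44), Cdkn1b (19.0 ± 0.766), Rbl1 (13.6 ± 1.23), Cdkn2d (7.14 ± 0.434), Rbl2 (2.86 ± 0.182), Rb1 (1.37 ± 0.205) and Cdkn2c (0.33 ± 0.04) (SD, n = 3). Neighbours in this order did not overlap over their libraries. In WT the order was the same except that Cdkn2d (10.5 ± 0.665 CPM per kb) stood above Rbl1 (9.13 ± 0.284 CPM per kb; SD, n = 3). The places of Rbl1 and Cdkn2d therefore depended on the group with this length. With the median length of each gene's annotated transcripts they did not: Rbl1 stood above Cdkn2d in both groups, at 25.9 ± 2.34 against 8.04 ± 0.488 CPM per kb in R783H and at 17.4 ± 0.542 against 11.9 ± 0.749 CPM per kb in WT (SD, n = 3). By their means, other genes then changed places: Rbl2 ranked 5 in R783H and 7 in WT, Rb1 6 and 5, and Cdkn2d 7 and 6. In R783H, Rbl2 (15.7 ± 1.00 CPM per kb) and Rb1 (15.5 ± 2.33; SD, n = 3) differed by less than either SD. Their order in R783H is therefore not settled. In WT, Rbl2 (9.25 ± 0.679 CPM per kb; SD, n = 3) stood below Cdkn2d, and in R783H above it. Cdkn1b stood above Cdkn2a in both groups with the median length. Cdkn1a was first and Cdkn2c last with either length. The lengths come from the annotation, and which transcripts these cells make was not measured.

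With the longest transcript as the length, Rbl1 made up most of the pocket protein mRNA per kilobase. Its share was 77.3%, 76.3% and 75.2% in R783H A, B and C and 76.1%, 77.3% and 74.1% in WT A, B and C, with overlapping groups. With the median transcript length Rbl1 was still the largest of the 3 but no longer the majority, at 45.4% ± 1.63 in R783H and 43.0% ± 2.28 in WT (SD, n = 3). With the longest transcript, the share of Rb1 was 7.66% ± 0.663 in R783H and 10.1% ± 0.855 in WT, and that of Rbl2 was 16.1% ± 0.753 in R783H and 14.0% ± 0.779 in WT (SD, n = 3 each). For both genes the groups did not overlap, and the exact two-sided permutation test gave p = 0.1, the smallest that 3 against 3 libraries allow. The summed level of the 3 genes was 17.8 ± 1.54 CPM per kb in R783H and 12.04 ± 0.349 CPM per kb in WT (SD, n = 3; exact permutation p = 0.1).

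Among the 5 CDK inhibitor genes, Cdkn1a held 62.6% ± 1.46 of the summed level per kilobase in R783H and 61.8% ± 0.546 in WT (SD, n = 3; exact permutation p = 0.5). The share of Cdkn2a was 20.5% ± 0.962 in R783H against 17.2% ± 0.336 in WT, and that of Cdkn2d was 4.55% ± 0.232 against 9.39% ± 0.445 (SD, n = 3; exact permutation p = 0.1 for each, with no overlap). Counts of Cdkn2a do not separate p16 from p19Arf, so these shares and the sum may include mRNA for p19Arf. Cdkn1b took 12.1% ± 0.897 and 11.3% ± 0.817, with overlap (SD, n = 3; exact permutation p = 0.4). The 5 genes together stood at 157 ± 6.52 CPM per kb in R783H and 112.1 ± 1.82 CPM per kb in WT (SD, n = 3; exact permutation p = 0.1). These p-values, 0.1 or more throughout, were not adjusted over the 10 shares and sums tested, and adjusting can only raise them. With the median instead of the longest transcript length, the R783H minus WT difference of Cdkn2d changed from -4.84 to -3.42 percentage points, that of Cdkn2a from 3.28 to 2.04, that of Rb1 from -2.47 to -7.05, that of Rbl1 from 0.40 to 2.35 and that of Rbl2 from 2.07 to 4.70.

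**Figure D3:**
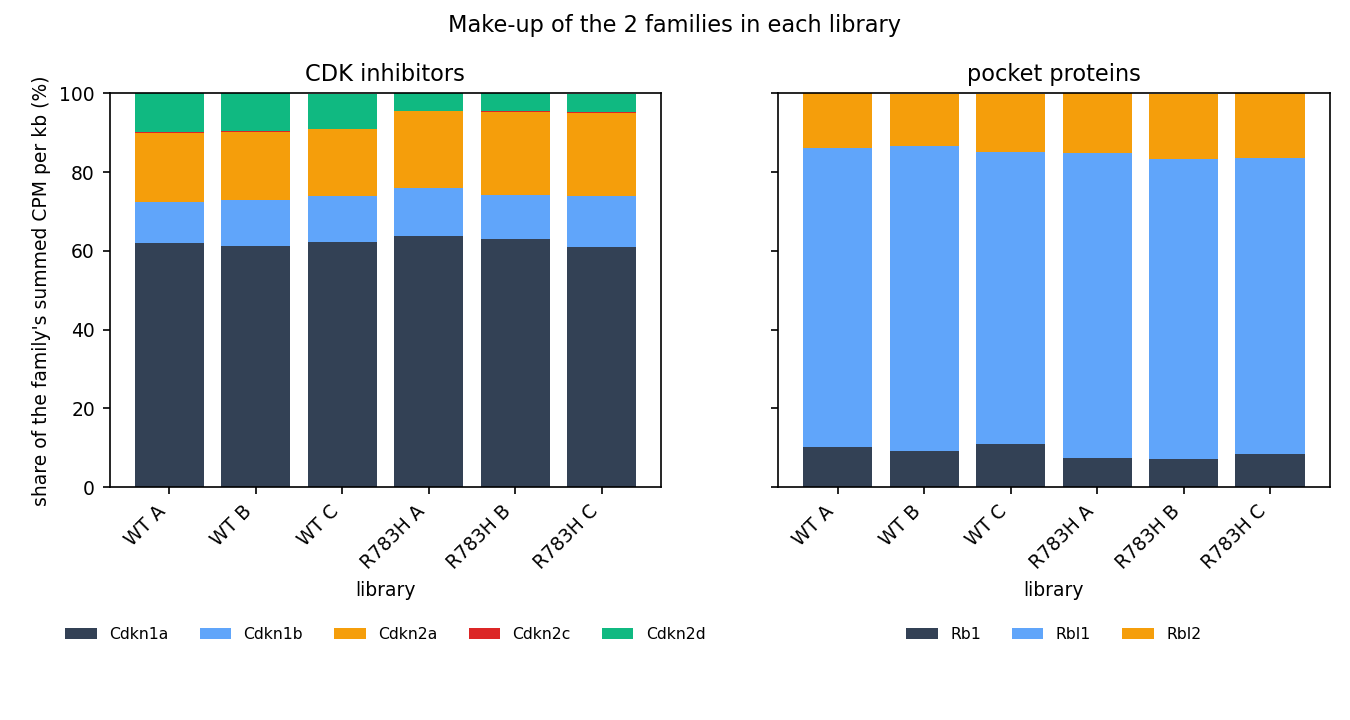
Share of each gene in the summed CPM per kb (longest transcript) of its family in each of the 6 libraries, for the 5 CDK inhibitors (left) and the 3 pocket proteins (right), in percent. Cdkn2d takes 8.90% to 9.77% in the WT libraries and 4.35% to 4.803% in the R783H libraries, and Rbl1 takes 74.1% to 77.3% in all 6. Cdkn2c, at most 0.317%, is barely visible.

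Transcript length moved with the fold changes of all genes. Of 10 classes of equal size by length, the class with transcripts of 4453 to 5241 nt holds Cdkn1b (4552 nt), Rb1 (4656 nt), Rbl1 (4862 nt) and Rbl2 (4925 nt). Its median log2 fold change was 0.11, and 40.6% rose and 24.5% fell. Cdkn2a (895 nt) belongs to the shortest class, where 17.7% rose and 43.8% fell. In the class with Cdkn2d (1423 nt) 22.5% rose and 44.9% fell, and in that with Cdkn1a (2080 nt) 24.3% rose and 40.8% fell. With an offset for length and GC content fitted per library, 31.2% of 13067 genes were called higher and 37.5% lower. The log2 fold changes were then 0.56 for Cdkn1a, 0.46 for Cdkn1b, 0.96 for Cdkn2a, 0.42 for Rbl1, 0.61 for Rbl2 and -0.45 for Cdkn2d, and all 6 calls stood. Rb1 was at 0.02 (SE 0.11; edgeR's quasi-likelihood adjusted p 0.876), and its uncorrected 0.17 lay near the median of its class.

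**Figure D4:**
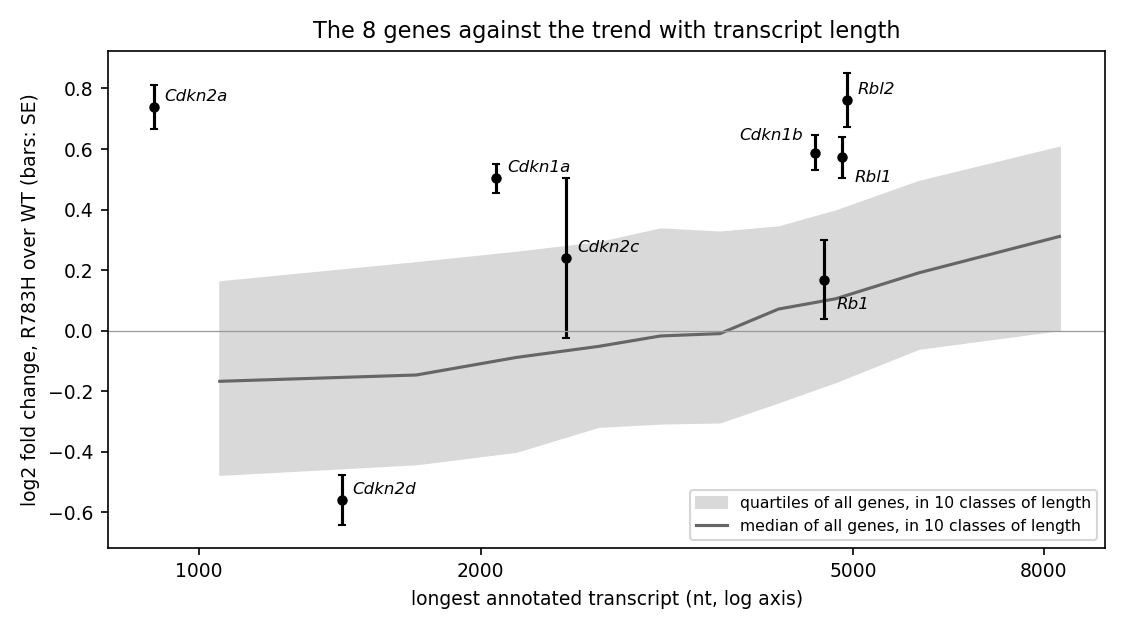
Log2 fold change against the length of the longest annotated transcript for the 8 genes (points, bars of 1 standard error), with the median (line) and quartiles (grey band) of all genes in 10 classes of length. Cdkn2a, Cdkn1a, Cdkn1b, Rbl1 and Rbl2 lie above the band, Cdkn2d lies below it and Rb1 lies near the line.

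The promoters of Rbl1 and of the p19Arf first exon of Cdkn2a are shown because E2F factors, the partners of the pocket proteins, bind sites of the form TTTCCCGC, TTTCGCGC, TTTGCCGC or TTTGGCGC. RefSeq windows from 250 bases before to 50 after the start (GRCm38.p6) were matched for 7 of the 8 genes, all but Rb1, with 10 windows in all, and searched on both strands for these 4 motifs. A motif (in capitals) was found in 2 of the 10 windows, 1 each of Rbl1 and Cdkn2a, and 2.26% of the 32851 windows of all genes held one. In Rbl1 the motif starts 18 bases before the start, and in Cdkn2a 99 bases before. The other Cdkn2a window, that of p16, held 0 motifs. These are matches of letters, and no binding was measured.
Rbl1, chr2:157204485-157204784, minus strand: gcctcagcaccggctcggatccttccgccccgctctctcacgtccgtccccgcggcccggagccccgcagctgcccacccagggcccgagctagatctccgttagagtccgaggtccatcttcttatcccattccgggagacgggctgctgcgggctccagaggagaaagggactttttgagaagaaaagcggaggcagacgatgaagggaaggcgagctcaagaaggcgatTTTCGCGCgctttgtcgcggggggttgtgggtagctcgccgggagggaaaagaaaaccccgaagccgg
Cdkn2a, chr4:89294570-89294869, minus strand: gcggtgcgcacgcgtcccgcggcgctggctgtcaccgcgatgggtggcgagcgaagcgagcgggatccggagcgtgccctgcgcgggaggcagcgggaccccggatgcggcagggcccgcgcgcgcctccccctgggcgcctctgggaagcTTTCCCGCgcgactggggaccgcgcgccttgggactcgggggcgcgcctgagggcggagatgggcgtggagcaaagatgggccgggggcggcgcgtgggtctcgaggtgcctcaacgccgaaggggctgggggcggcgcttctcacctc

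Among 53 other genes of the pathway, in 7 lists, 38 fell, 7 rose and 8 did not pass the test, where 30.9% of all tested genes fell and 33.5% rose. Their median log2 fold change was -0.47, beside 0.54 for the 8 genes and 0.03 for all tested genes. The lists, like the 8 genes, were chosen with earlier results of these data known, so this contrast is descriptive only. The number that rose was 4 without R783H A and 4 without R783H C. Values are given for up to 3 called genes of each list with the largest change. Cdkn2b, Cdk2, Cdk4, Cdk6, E2f1, Tfdp2, Mcm2, Trp53, Ezh2, Zbtb17, Mdm2 and Bmi1 were added after their values were seen. Of the 2 CDK inhibitors outside the 8, Cdkn1c, which encodes the CIP/KIP protein p57, fell, with 2.32 ± 0.399 CPM in WT and 1.35 ± 0.176 CPM in R783H (SD, n = 3; log2 scale -0.78, SE 0.19; edgeR's quasi-likelihood adjusted p 0.00404). Cdkn2b, the neighbour of Cdkn2a on chromosome 4 that encodes the INK4 inhibitor p15, had a log2 fold change of 0.04 (SE 0.15; adjusted p 0.843, edgeR's quasi-likelihood test).

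Of 8 G1 cyclins and kinases 6 fell and 2 did not pass, beside 30.9% of all tested genes that were called lower. Calls here and in the lists that follow are from edgeR's quasi-likelihood test. The median of the 8 was -0.89. All 5 cyclins of the list, Ccnd1, Ccnd2, Ccnd3, Ccne1 and Ccne2, were among the 6 that fell. Ccne1, cyclin E1, which drives Cdk2, went from 305.4 ± 9.83 to 98.6 ± 4.44 CPM (SD, n = 3; log2 scale -1.63, SE 0.05). Ccnd3, a cyclin D that partners Cdk4 and Cdk6, went from 295.5 ± 14.9 to 147.9 ± 8.92 CPM (SD, n = 3; -0.999, SE 0.05), and Ccnd2, at 3.83 CPM in WT, changed by -1.29 (SE 0.23). The kinases moved less: Cdk6 fell by 0.19 on the log2 scale (SE 0.06), Cdk4 was at -0.01 (SE 0.05) and Cdk2 at 0.01 (SE 0.04).

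Of 10 E2F and DP genes 6 fell and 2 rose (30.9% and 33.5% of all tested genes), with a median of -0.33. Among those that fell were E2f4, the E2F that mostly pairs with Rbl1 and Rbl2 proteins, from 325.7 ± 12.1 to 223.2 ± 6.15 CPM (SD, n = 3; log2 scale -0.55, SE 0.04), and Tfdp1, the common DP partner, by 0.67 on the log2 scale (SE 0.04). E2f8 was at -0.49 (SE 0.07), and E2f1, an activating E2F, and Tfdp2, another DP partner, were the 2 that rose (0.33, SE 0.06, and 0.40, SE 0.06). Of 5 genes of the MuvB core, the part of DREAM that binds Rbl1 and Rbl2 proteins, 2 rose and 2 fell, which is near the shares of all tested genes. Lin37 was at -0.48 (SE 0.09), Rbbp4 at -0.42 (SE 0.05) and Lin52 at 0.36 (SE 0.10).

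Of 6 genes that act in the degradation of p27 and pocket proteins 5 fell and 1 did not pass. Of all tested genes 30.9% were called lower. The median of the 6 was -0.58. Cks1b, which guides Skp2 to p27, fell from 132.0 ± 6.62 to 81.1 ± 2.21 CPM (SD, n = 3; log2 scale -0.70, SE 0.05). Ccnf, cyclin F, an F-box protein, changed by -0.77 (SE 0.06) and Cul1, the scaffold of SCF, by -0.59 (SE 0.05). Of 8 genes that regulate Cdkn1a or Cdkn2a 5 fell and 3 rose, the latter near the 33.5% of all tested genes. Myc, which represses Cdkn1a and Cdkn2b with Zbtb17, had a log2 fold change of -1.71 (SE 0.06), Id1 of -0.87 (SE 0.08) and Mdm4, a p53 inhibitor, of 0.54 (SE 0.10). Trp53, the gene of p53, fell by 0.46 on the log2 scale (SE 0.06) and Ezh2 by 0.51 (SE 0.05). Zbtb17 was at -0.20 (SE 0.07), Mdm2 at 0.25 (SE 0.08) and Bmi1 at 0.26 (SE 0.09), each with overlapping CPM ranges. Whether these changes bear on Cdkn1a or Cdkn2a was not tested.

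Of 14 genes known to be repressed by E2F and pocket proteins in G1, 13 fell and 1 did not pass, beside 30.9% of all tested genes that were called lower, and the median was -0.49. Rrm2, a subunit of ribonucleotide reductase, fell from 446.4 ± 7.67 to 221.4 ± 11.2 CPM (SD, n = 3; log2 scale -1.01, SE 0.05). Ccna2, cyclin A2, went from 261.3 ± 0.990 to 143.5 ± 6.29 CPM (SD, n = 3; -0.86, SE 0.04), and Ccnb1, cyclin B1, changed by -0.81 (SE 0.04). Mcm2, the 1 gene that did not pass, was at -0.01 (SE 0.05). The list does not hold every known E2F target: Rbl1, counted among the 8 genes instead, rose (log2 scale 0.57, SE 0.07).

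**Figure D5:**
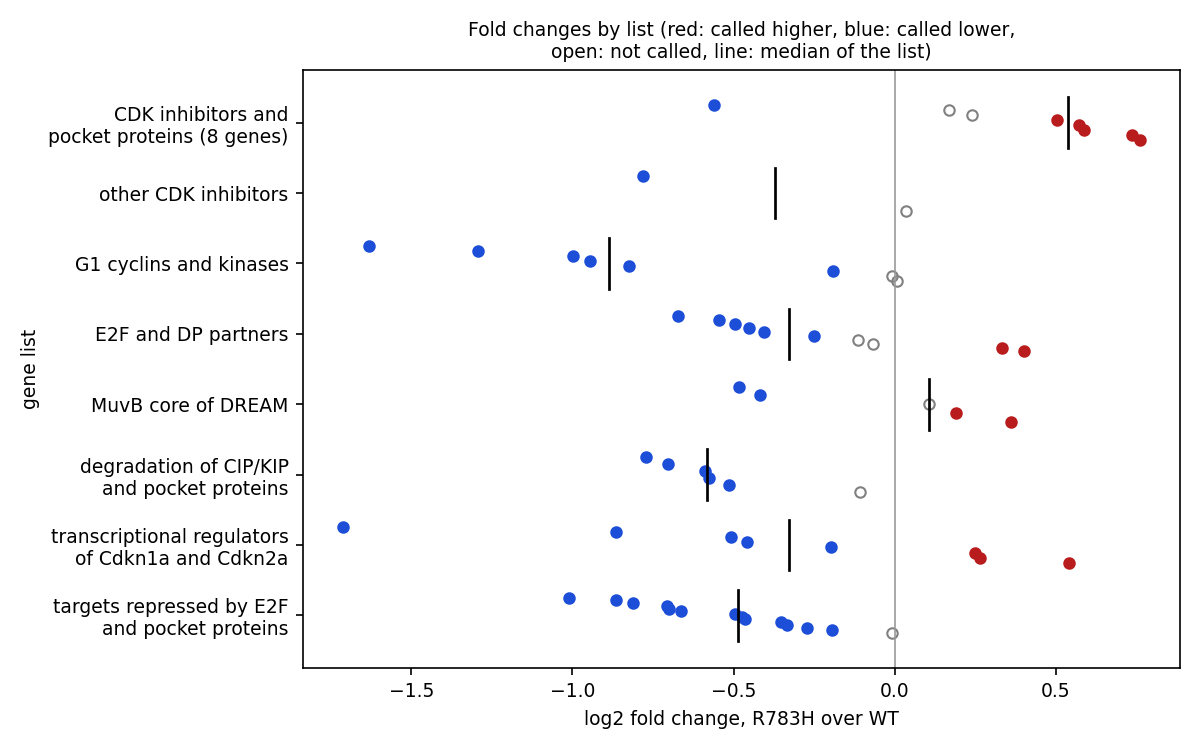
Log2 fold change of R783H over WT for the 8 genes (top) and for the 53 genes of 7 pathway lists, 1 point per gene, filled red where called higher, filled blue where called lower and open where not called, with a line at the median of each list. The medians are 0.54 for the 8 genes, -0.89 for G1 cyclins and kinases, -0.58 for the degradation list and -0.49 for the repressed targets.

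Over the 6 libraries, the genes nearest to each of the 8 were found among 9108 other genes averaging at least 10 CPM, by the Euclidean distance between log2 CPM profiles centred on their means. Nearest were Tulp3 to Cdkn1a (0.05), Armcx2 to Cdkn1b (0.06), Plin2 to Cdkn2a (0.09), Gng7 to Cdkn2c (0.16), Ybx1 to Cdkn2d (0.07), Cfap97 to Rb1 (0.06), Elmod2 to Rbl1 (0.06) and Zfhx3 to Rbl2 (0.03). The next were Mms19 for Cdkn1a, Lamp2 for Cdkn1b, Hif3a for Cdkn2a, Atp6v0c for Cdkn2c, Fhl3 for Cdkn2d, Nsrp1 for Rb1 and Lrig2 for Rbl2. These genes share the libraries and the group difference with the 8 genes, and the distance describes only that.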

How the data were processed

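Poly(A)-selected RNA was sequenced in 3 R783H and 3 WT libraries, assigned by their titles. The authors deposited raw read counts per Entrez gene, whole numbers without normalization, and per the file header each column comes from 1 alignment file. The submitters' processing notes name CASAVA 1.4, HISAT2, SAMtools and the build mm10; the counting tool, its annotation and its use of strand are not given in the sources used here. Symbols came from RefSeq (GRCm38.p6; 25275 of 27179 identifiers matched), and lengths, exons and 3' untranslated regions from GENCODE M21 (GRCm38). BLAST 2.17.0 searched the 8 genes for copies of at least 98% identity over 100 nt; beside the overlapping genes, Cdkn1a shares 102 to 110 nt with Ctcfl, Ecsit and Top1.

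With R 4.3.3 and edgeR 4.0.16, genes were kept by filterByExpr (minimum count 10, minimum total 15), scaled by TMM and tested with the quasi-likelihood test, group as the single term, Benjamini-Hochberg adjustment over 14199 genes, threshold 0.05. SE is the log2 fold change divided by the square root of F. CPM use the TMM-scaled library size. Total counts were 20894277 to 29079670 per library, and a floor of 3 counts, which covers counting error only, equals 0.103 to 0.144 CPM. Tested on simulated data for 14199 genes, the fit called 84 of 100 genes changed 2-fold, 68 of 100 changed 1.5-fold and 11 unchanged genes. No other genes were changed there, whereas 64.5% were called in the measured data, so these rates need not carry over. The length and GC offset used natural splines on 13067 genes (92.0%). DESeq2 1.42.0 and limma 3.58.1 (trend, prior count 2) were alternatives. Named genes were the 8 members, in each list at most 3 called genes, those of largest change, and the 2 nearest genes per member, of which 1 is not reported here. Beyond this rule, Cdkn2b, Cdk2, Cdk4, Cdk6, E2f1, Tfdp2, Mcm2, Trp53, Ezh2, Zbtb17, Mdm2 and Bmi1 were given after their values were seen. Called markers are named too. The members and lists were chosen with earlier results of these data known.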

Additional observations from a re-analysis of the deposited data

How the results depend on the processing

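The 6 called genes kept direction and call, and Rb1 and Cdkn2c stayed uncalled, under all 17 alternatives (3 scalings, 2 filters, 1 thinning of counts, 2 other tests, the length and GC offset, the replicate block, both together, and each library left out). Log2 fold changes ranged from 0.44 to 0.58 for Cdkn1a, 0.46 to 0.67 for Cdkn1b, 0.66 to 0.96 for Cdkn2a, -0.61 to -0.45 for Cdkn2d, 0.42 to 0.65 for Rbl1, 0.61 to 0.84 for Rbl2, 0.01 to 0.26 for Rb1 and 0.11 to 0.45 for Cdkn2c. Scaling by library size alone moved the median of all genes most, to 0.11, and gave 5673 higher and 3603 lower calls. The number of pathway genes that rose, 7, ranged from 4 to 8 with a library left out. With the median transcript length, the share differences were -7.05 (Rb1), 2.35 (Rbl1), 4.70 (Rbl2), 2.04 (Cdkn2a) and -3.42 (Cdkn2d) percentage points. Only the lengths changed in this setting, and the CPM did not. For Rb1 the median was 409.5 nt and the longest 4656 nt. For Rbl2 these were 897.5 and 4925 nt, and for Rbl1 2549 and 4862 nt. Deviations of same-lettered libraries correlated at -0.07 (A), 0.01 (B) and 0.09 (C), and those of libraries with different letters at -0.13 to 0.13. Deviations from a mean of 3 libraries are not independent, so these values cannot settle pairing. The letters were not taken as pairs because the labels do not say that a letter is shared between groups. The replicate block gave 9260 calls in place of 9152. Cdkn2c, at 13 to 25 counts per library, has the fewest reads of the 8 genes and the largest standard error.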
